A study of Mus musculus with 18 samples.

Results

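Cells make cholesterol from squalene through a chain of enzymes of the endoplasmic reticulum, and 9 genes of that chain are described here across 6 groups of mouse embryoid bodies, which are clumps of stem cells differentiating in suspension. They were chosen by name, as the sterol steps from squalene synthase on, and are 9 of the 54446 genes counted. The list was drawn up with results of the Mettl14 line in view, so that line's values are given as a description, without p-values for the 9 genes. The Mettl3 counts and p-values also concern genes chosen with earlier results of these data known, and they too are a description. All lines came from C57BL/6 embryonic stem cells with Mettl14 or Mettl3 as a conditional knockout (CKO), genes whose proteins form the core of the enzyme that places N6-methyladenosine on mRNA. The groups were the Mettl14 knockout with GSK343 at 5 µM, the Mettl14 knockout, the Mettl14 control, the Mettl3 knockout with GSK-J4 at 5 µM, the Mettl3 knockout and the Mettl3 control, with 3 libraries each after 7 days. Knockout cells without an inhibitor were given DMSO, GSK343 inhibits EZH2, the methyltransferase of the repressive mark H3K27me3, and GSK-J4 inhibits the demethylases of that mark, KDM6A and KDM6B. The study's design text asks what an inhibitor of that methyltransferase does to the expression changes of the Mettl14 knockout. No inhibitor was given to both lines, and no control with an inhibitor is among these groups. The labels do not say how the deletions were made, how many clones a line holds, or whether replicates were separate cultures, so the spread behind each p-value is that among these libraries and may be technical.

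Squalene synthase (FDFT1) commits farnesyl diphosphate to sterols, squalene epoxidase (SQLE) and lanosterol synthase (LSS) close the ring system, and the later enzymes strip methyl groups and rearrange double bonds until cholesterol remains. When membrane sterol is low, the sensor SCAP escorts the transcription factor SREBP2 out of the endoplasmic reticulum, and SREBP2 then switches on most genes of this chain. When sterol is plentiful, INSIG proteins hold SCAP back, and oxidised sterols activate the LXR receptors, which promote sterol export.

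The 9 libraries of the Mettl14 line held 721853 to 20714764 counts and those of the Mettl3 line 3395675 to 32540164, and the lowest count of any member in any library was 19, for Tm7sf2. Levels are counts scaled to library size (CPM), adjusted by the TMM method over all 18 libraries. The GSK-J4 libraries stood apart: 0.678 to 0.957% of their counts came from mitochondrial genes, against 3.06 to 4.87% in the other 15 libraries. All 6 mesenchyme markers (Col1a1, Col1a2, Col3a1, Sparc, Pdgfra and Vim) were detected in every group, and their sum was 1921 to 2423 CPM with GSK-J4, 17388 to 18105 in the Mettl3 knockout and 12842 to 16858 in its control. In the Mettl14 line that sum was 11045 to 13883 CPM with GSK343, 13957 to 15758 in the knockout and 14827 to 17839 in the control. Epithelial markers (Cdh1, Epcam, Krt8 and Krt18) summed to 12.5 to 123 CPM with GSK-J4 and to at most 10.4 CPM elsewhere. Endothelial markers (4 of 4 detected with GSK-J4) summed to 32.6 to 35.0 CPM with GSK-J4 and 11.4 to 17.9 CPM in the Mettl3 knockout. Blood markers (2 of 4 detected with GSK-J4, Hbb-bh1 and Gata1 at 0) summed to 9.49 to 15.3 CPM with GSK-J4 and at most 0.54 CPM in that knockout. Endoderm markers (3 of 5 detected with GSK-J4, Ttr and Apoa1 at 0) summed to 6.23 to 12.6 CPM with GSK-J4 and at most 1.56 CPM in that knockout. Adipocyte markers (2 of 4 detected with GSK-J4, Adipoq and Fabp4 at 0) summed to 0.51 to 6.71 CPM with GSK-J4 and 96.1 to 157 CPM in that knockout. Oligodendrocyte markers summed to 0.34 to 14.1 CPM with GSK-J4, 21.9 to 39.2 CPM in the Mettl3 knockout and 2.94 to 26.2 CPM in its control, with Mog at 0 in every group. In the Mettl14 line they summed to 6.98 to 36.4 CPM with GSK343, 13.2 to 31.6 CPM in the knockout and 9.22 to 21.0025 CPM in the control. Hepatocyte markers reached at most 3.84 CPM, with GSK-J4, and Apoa2 and Serpina1a were at 0 in every group. The part of these shifts in the results below was not tested. In bulk RNA, fewer cells of a type and less RNA per cell cannot be told apart. Neither targeted gene separated its own knockout from its control. Mettl14 had 17.1, 24.6 and 20.2 CPM in its knockout and 17.7, 19.2 and 17.6 CPM in its control. Mettl3 had 25.9, 6.90 and 17.8 CPM in its knockout and 20.1, 34.1 and 18.8 CPM in its control. These are counts over whole genes and do not check the deleted part.

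Promoter windows of 7 of the 9 genes were found in the RefSeq set for GRCm38.p6 (250 bases before to 50 after the start), and they were searched on both strands for motifs tied to sterol genes. Fdft1 and Sqle were not among them. The short sterol regulatory element TCACCNCA was found in 2 of the 7 windows, Cyp51 and Hsd17b7, against 4.42% of 32851 mouse windows. A stricter form, TCACNCCAC, was in 0 of 7 and in 1.24% of all windows. The CCAAT box (CCAAT), which NF-Y binds, was in 7 of 7, against 37.4% of all windows, and the GC box GGGCGG was likewise in 7 of 7, against 35.7%. The E-box CACGTG was in Hsd17b7 and Sc5d, 2 of 7, against 7.15%. Cyp51 and Hsd17b7 are printed because they hold the sterol element, Lss because it rose most with GSK343 and Sc5d because it holds the E-box. Each stretch reads 5′ to 3′ on the gene's strand and stops before annotated exons. Capitals mark the sterol element, the CCAAT box on either strand (ATTGG on the reverse) and the E-box, and the GC box is left in lower case. A match is a description of letters and shows no binding.
Cyp51 promoter: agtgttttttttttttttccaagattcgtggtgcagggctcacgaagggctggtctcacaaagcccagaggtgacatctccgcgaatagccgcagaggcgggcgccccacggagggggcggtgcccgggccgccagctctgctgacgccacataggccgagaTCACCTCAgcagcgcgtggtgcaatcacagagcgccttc
Hsd17b7 promoter: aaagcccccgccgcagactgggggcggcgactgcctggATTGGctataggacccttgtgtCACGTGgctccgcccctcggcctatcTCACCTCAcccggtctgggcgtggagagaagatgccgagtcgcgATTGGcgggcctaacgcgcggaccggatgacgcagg
Lss promoter: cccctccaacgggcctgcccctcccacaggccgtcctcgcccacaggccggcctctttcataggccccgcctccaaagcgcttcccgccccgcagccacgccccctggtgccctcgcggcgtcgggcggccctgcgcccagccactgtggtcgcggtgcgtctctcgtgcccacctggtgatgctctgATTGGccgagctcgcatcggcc
Sc5d promoter: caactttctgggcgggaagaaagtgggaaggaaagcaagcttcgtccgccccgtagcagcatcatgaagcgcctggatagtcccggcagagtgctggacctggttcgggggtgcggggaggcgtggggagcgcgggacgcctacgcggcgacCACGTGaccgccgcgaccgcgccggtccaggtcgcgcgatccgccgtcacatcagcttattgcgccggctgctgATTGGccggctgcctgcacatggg
The stretches lie at chr5:4104747-4104947 (minus strand), chr1:169969243-169969408 (minus strand), chr10:76531355-76531564 (plus strand) and chr9:42264301-42264550 (minus strand), in the order printed. The sterol element begins 88 bases before the start of Cyp51 and 117 bases before that of Hsd17b7. In Hsd17b7 the E-box begins 143 bases before the start, ahead of the sterol element, with CCAAT boxes at 165 and 73 bases before the start in the printed stretch.

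Fdft1 (ENSMUSG00000021273.10, chr14:63145150-63179578, minus strand, mm10) encodes squalene synthase, the branch point to sterols. Fdft1 had 472, 456 and 393 CPM in the Mettl14 knockout with GSK343, 293, 276 and 259 CPM in the Mettl14 knockout and 179, 186 and 191 CPM in the Mettl14 control. In the Mettl3 line it had 163, 88.9 and 58.4 CPM in the knockout with GSK-J4, 229, 308 and 194 CPM in the knockout and 218, 238 and 208 CPM in the control. The Mettl14 groups formed 3 separate steps, and with GSK-J4 all 3 values lay below the other Mettl3 libraries. Of its exon bases, 18.3% overlap Ctsb on the opposite strand, so without a stated strand setting some reads could belong to either gene.

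Sqle (ENSMUSG00000022351.14, chr15:59315077-59331192, plus strand) encodes squalene epoxidase, which adds the oxygen and is a rate-limiting step of the chain. Sqle had 231, 199 and 255 CPM in the Mettl14 knockout with GSK343, 113, 105 and 129 CPM in the Mettl14 knockout and 89.3, 94.5 and 74.1 CPM in the Mettl14 control. Across the Mettl3 line it had 143, 56.8 and 97.7 CPM in the knockout with GSK-J4, 119, 154 and 114 CPM in the knockout and 101, 105 and 101 CPM in the control. The Mettl14 groups again did not overlap, whereas the GSK-J4 libraries straddled both other Mettl3 groups, with replicate 1 above every control and replicates 2 and 3 below every one.

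Lss (ENSMUSG00000033105.12, chr10:76531588-76557138, plus strand) encodes lanosterol synthase, which folds the epoxide into the first sterol. Lss had 197, 125 and 218 CPM in the Mettl14 knockout with GSK343, 36.3, 73.6 and 48.3 CPM in the Mettl14 knockout and 45.7, 49.0 and 34.9 CPM in the Mettl14 control. Among Mettl3 libraries it had 17.98, 18.7 and 28.5 CPM in the knockout with GSK-J4, 65.3, 63.9 and 61.8 CPM in the knockout and 54.9, 41.6 and 58.2 CPM in the control. All GSK343 values were above the rest, the Mettl14 knockout overlapped its control through replicates 1 and 3, and all GSK-J4 values were below the rest of their line.

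Cyp51 (ENSMUSG00000001467.5, chr5:4081145-4104746, minus strand) encodes the P450 that demethylates lanosterol. Cyp51 had 380.3, 460.2 and 289 CPM in the Mettl14 knockout with GSK343, 206, 228 and 169.5 CPM in the Mettl14 knockout and 163, 159 and 144 CPM in the Mettl14 control. In the other line, Mettl3, it had 99.8, 22.1 and 61.9 CPM in the knockout with GSK-J4, 231, 292 and 221 CPM in the knockout and 205, 201 and 196 CPM in the control. Its Mettl14 groups were 3 separate steps, and the GSK-J4 values spread widely but stayed under every other library.

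Tm7sf2 (ENSMUSG00000024799.15, chr19:6062821-6068373, minus strand) encodes a sterol reductase whose step the lamin B receptor LBR can also carry out. Tm7sf2 had 39.2, 41.3 and 80.0 CPM in the Mettl14 knockout with GSK343, 33.1, 21.04 and 16.7 CPM in the Mettl14 knockout and 8.73, 11.5 and 18.7 CPM in the Mettl14 control. Across the Mettl3 line it had 6.23, 8.48 and 3.88 CPM in the knockout with GSK-J4, 23.5, 16.0 and 12.3 CPM in the knockout and 14.9, 14.5 and 15.2 CPM in the control. The GSK343 values lay above all others and the GSK-J4 values below all others, while each knockout overlapped its control. Tm7sf2 was the least counted of the 9, and 12.1% of its exon bases are shared with Vps51 on the same strand.

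Msmo1 (ENSMUSG00000031604.10, chr8:64718139-64733792, minus strand) encodes the oxidase that starts removal of the paired methyl groups. Msmo1 had 450.1, 463 and 387 CPM in the Mettl14 knockout with GSK343, 299.7, 252 and 158 CPM in the Mettl14 knockout and 147, 159.9 and 177 CPM in the Mettl14 control. In the Mettl3 line it had 169, 73.2 and 109.8 CPM in the knockout with GSK-J4, 213, 229 and 172 CPM in the knockout and 185, 241 and 206 CPM in the control. The GSK343 libraries stood above all others, the Mettl14 knockout overlapped its control through replicate 3, and the GSK-J4 libraries were below the other Mettl3 libraries, replicate 1 only just.

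Nsdhl (ENSMUSG00000031349.4, chrX:72918557-72958514, plus strand) encodes the dehydrogenase that follows MSMO1 and takes off the carboxyl group. Nsdhl had 159, 124 and 122 CPM in the Mettl14 knockout with GSK343, 66.5, 84.2 and 34.3 CPM in the Mettl14 knockout and 38.9, 36.1 and 50.7 CPM in the Mettl14 control. Across the Mettl3 line it had 7.67, 2.63 and 17.9 CPM in the knockout with GSK-J4, 63.9, 65.4 and 48.3 CPM in the knockout and 44.1, 52.2 and 51.7 CPM in the control. The GSK343 values were separate from all others, the Mettl14 knockout spanned its control, and Nsdhl had the lowest GSK-J4 value of any member.

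Hsd17b7 (ENSMUSG00000026675.12, chr1:169949535-169969241, minus strand) encodes the ketoreductase that completes each round of demethylation. Hsd17b7 had 164, 156 and 145 CPM in the Mettl14 knockout with GSK343, 83.9, 85.7 and 54.5 CPM in the Mettl14 knockout and 60.0, 57.1 and 42.6 CPM in the Mettl14 control. Among Mettl3 libraries it had 9.35, 14.5 and 22.9 CPM in the knockout with GSK-J4, 50.2, 78.5 and 55.3 CPM in the knockout and 36.7, 34.6 and 46.2 CPM in the control. The 3 Mettl3 groups did not overlap, with the knockout above its control and GSK-J4 below both, and in the Mettl14 line GSK343 alone was separate.

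Sc5d (ENSMUSG00000032018.14, chr9:42251595-42264256, minus strand) encodes a late sterol desaturase. Sc5d had 212, 186 and 135 CPM in the Mettl14 knockout with GSK343, 95.4, 75.6 and 80.8 CPM in the Mettl14 knockout and 61.5, 52.7 and 48.6 CPM in the Mettl14 control. In the other line, Mettl3, it had 23.5, 36.9 and 20.2 CPM in the knockout with GSK-J4, 73.7, 93.9 and 89.4 CPM in the knockout and 62.1, 61.7 and 74.1 CPM in the control. The Mettl14 groups were 3 separate steps, and in the Mettl3 line GSK-J4 lay below the other groups, which overlapped.

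**Figure D1:**
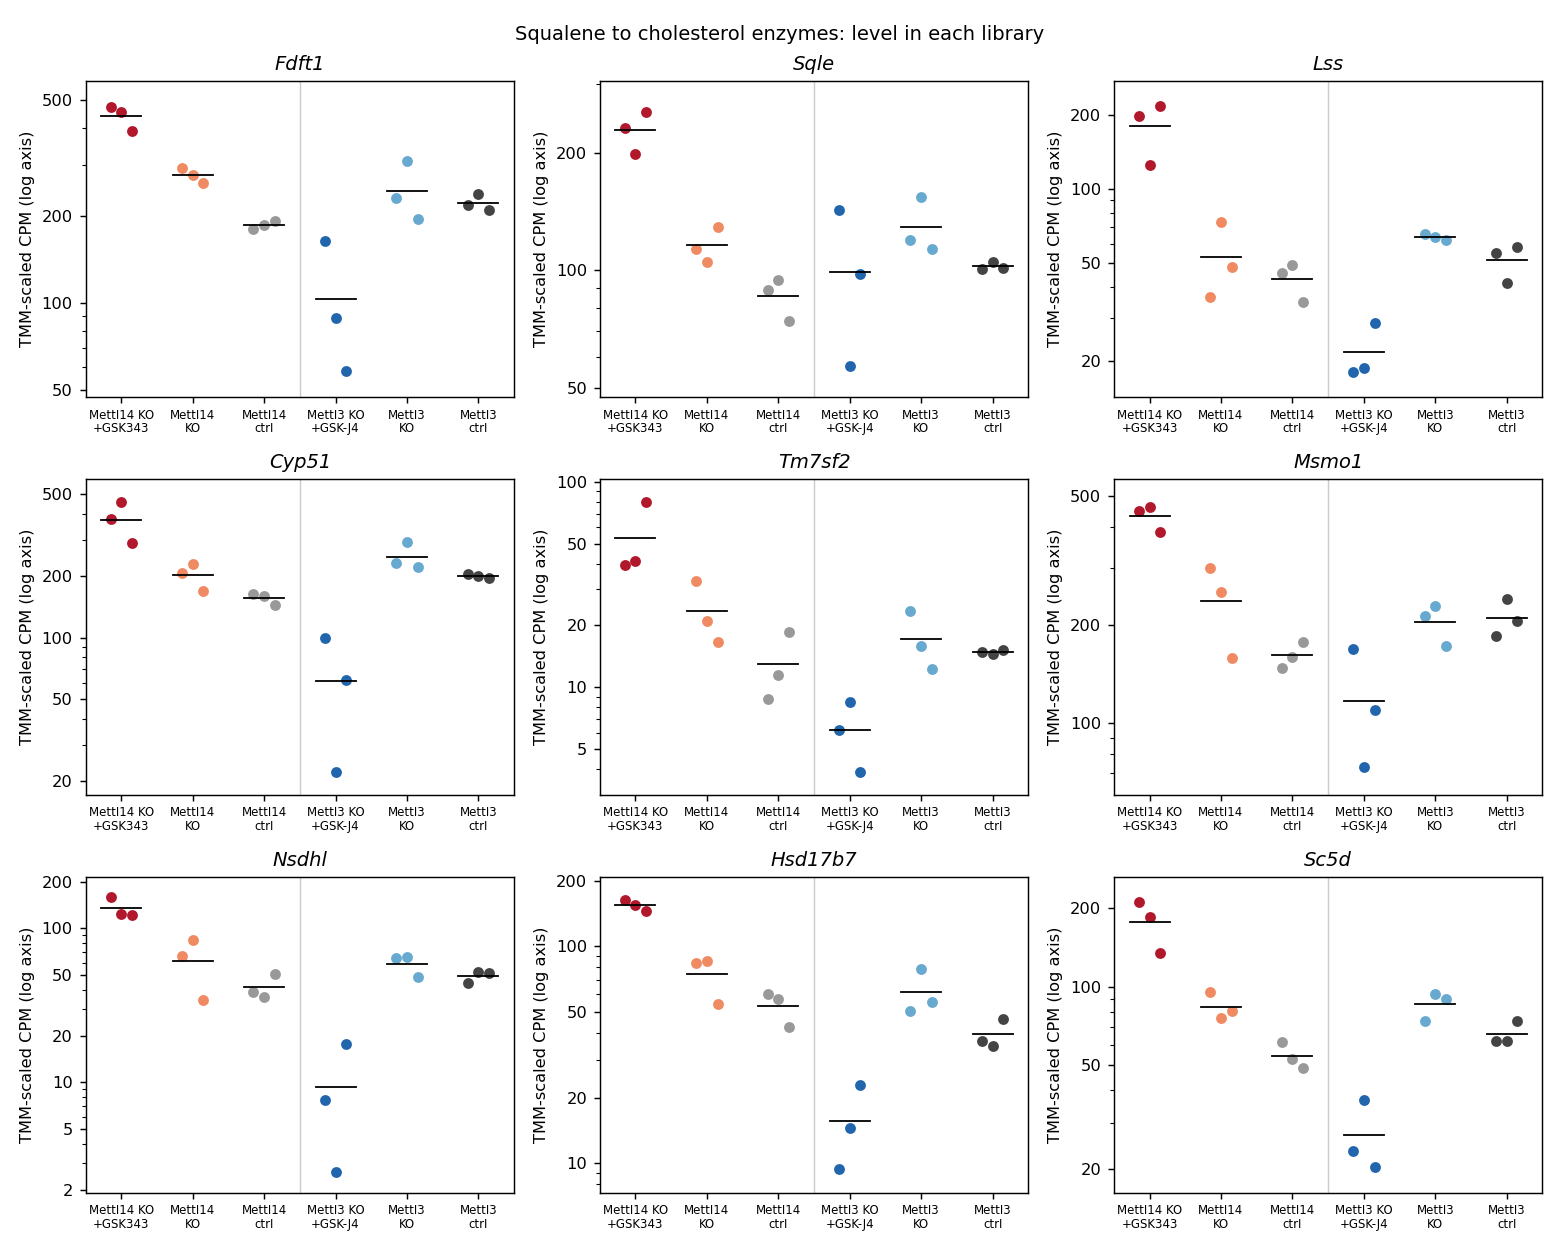
Level of each of the 9 enzymes in each of 18 libraries, in TMM-scaled CPM on a log axis; dots are libraries in replicate order and bars are means of 3. GSK343 libraries are the highest group in all 9 panels, and GSK-J4 the lowest group in 8, with Sqle the exception.

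Summed over the 9 genes, the level was 2180 ± 143 CPM with GSK343, 1126 ± 153 CPM in the Mettl14 knockout and 794 ± 11.8 CPM in the Mettl14 control (SD, n = 3 each). The Mettl3 line had 461 ± 162 CPM with GSK-J4, 1113 ± 170 CPM in the knockout and 956 ± 34.1 CPM in the control (SD, n = 3 each). Ranked by group mean, GSK343 came first for all 9 genes, and its libraries overlapped the next group only for Cyp51, where the next group was the Mettl3 knockout. The knockouts and controls of the lines took the middle places and mostly overlapped their neighbours. GSK-J4 was last for 8 genes, and for Sqle the Mettl14 control was last, overlapping GSK-J4.

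In the Mettl14 knockout against its control, every member had a higher fitted level, but none passed the test. The log2 fold changes ran from 0.32 (Lss) to 0.92 (Tm7sf2), with a median of 0.58 against 0.014 over all genes tested, and 9 of 9 were positive, against 51.7% of all genes. The count called at a Benjamini-Hochberg adjusted p under 0.05 (edgeR quasi-likelihood) was 0 of 9, against 0% of 13882 genes. DESeq2 and limma voom also called 0, both of the members and of all genes. At an unadjusted p under 0.05 there were 6 of 9 higher, against 0.944%. All 3 knockout libraries were above all 3 controls for Fdft1, Sqle, Cyp51 and Sc5d, 4 of 9 against 2.9% of genes. Nothing is read from these counts, since the list was chosen with this contrast in view. Without knockout replicate 2 the change of Lss was -0.042.

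With GSK343, all 9 enzymes were higher than in the Mettl14 knockout without it in every library. Lss changed most, by a log2 fold change of 1.75 ± 0.30 (SE), followed by Nsdhl at 1.10 ± 0.29, Sc5d at 1.09 ± 0.24 and Tm7sf2 at 1.08 ± 0.40. Fdft1 changed least, at 0.67 ± 0.21. The median was 1.04, against -0.035 over all genes. Lss was called, 1 of 9, where 0.0288% of genes were called higher, and at an unadjusted p under 0.05 all 9 were higher, where 2.64% of genes were. All 3 GSK343 libraries were above all 3 knockout libraries for 9 of 9, where 4.51% of genes were. As for the knockout contrast, these counts describe values that were in view when the list was chosen, and nothing is read from them. Lss lost its call when replicate 2 of the knockout (2.11), its replicate 3 (1.72), or replicate 1 (1.69) or 3 (1.60) of the GSK343 group was left out. DESeq2 called 5 members, and voom called 2. Both shallow libraries, knockout replicate 3 with 1303697 counts and GSK343 replicate 3 with 721853, enter this contrast. Without them the median was 0.91.

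Against the Mettl14 control, all 9 enzymes were higher in the knockout with GSK343 in every library. The calls were 9 of 9, where 0.151% of genes were called higher, and all 3 libraries were above all 3 controls for 9 of 9, where 4.29% of genes were. Nothing is read from these counts either, since the list was chosen with this line's results in view. Log2 fold changes ran from 1.27 ± 0.21 for Fdft1 to 2.07 ± 0.30 for Lss and 2.00 ± 0.40 for Tm7sf2, with a median of 1.57 against -0.014 over all genes. On a linear scale Fdft1 was 2.41 times and Lss 4.20 times the control level. The count called was 3 without control replicate 1 and 2 without control replicate 2. It was 2 without GSK343 replicate 1, 3 without GSK343 replicate 2 and 2 with all 18 libraries in the fit. In the same order, 7, 4, 4, 9 and 2 genes were called over all genes, against 23 in the main fit. Calls thus fell over all genes too, and nothing about the 9 enzymes is read from the fall. Over all single omissions the lowest median was 1.51. This contrast shares the control libraries with the knockout contrast and the GSK343 libraries with the inhibitor contrast, so the 3 are not independent. The mesenchyme sum given above was lower in all 3 GSK343 libraries than in the knockout or the control, against the knockout only narrowly. Its genes did not all move alike. Mean Col1a1, Col1a2, Col3a1 and Sparc were lowest of the line with GSK343. Mean Vim was highest there, at 2154 CPM against 1753 in the knockout and 2085 in the control. Mean Pdgfra was 158 CPM with GSK343, 152 CPM in the knockout and 186 CPM in the control. The part of these shifts was not tested.

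**Figure D2:**
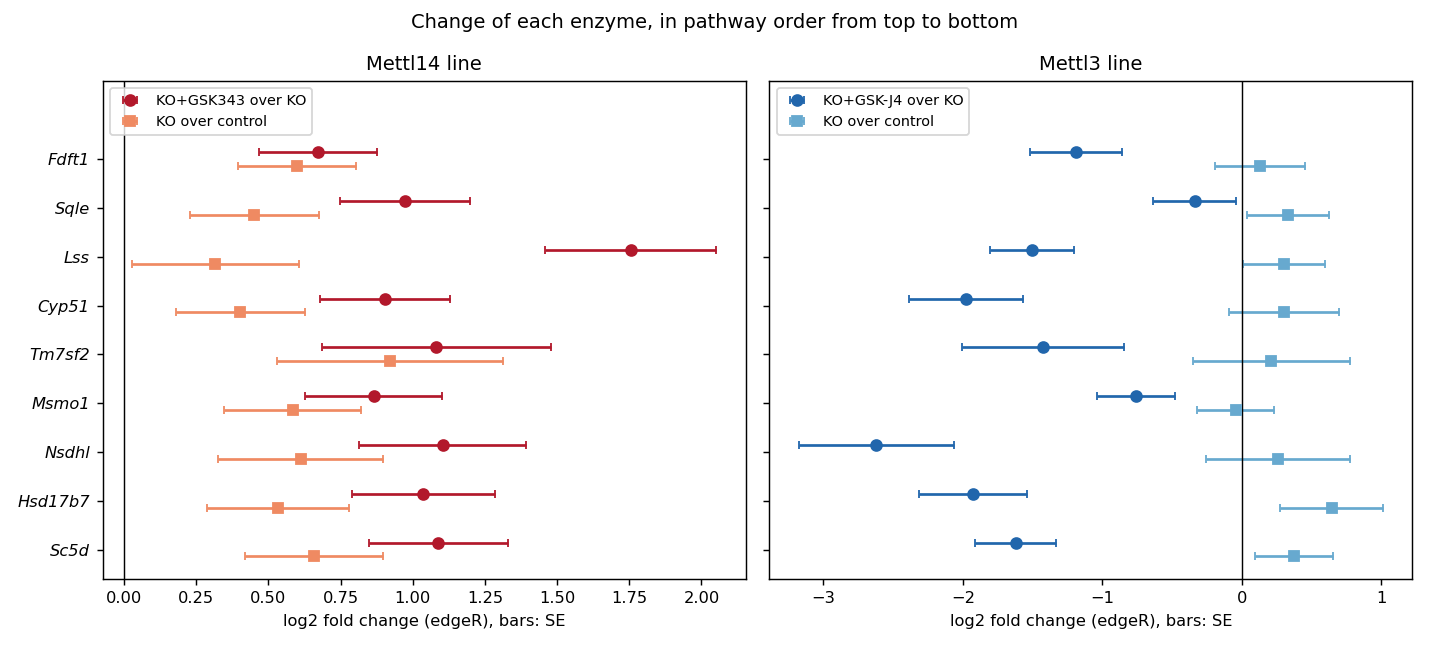
Log2 fold change of each enzyme with its SE, in pathway order from top to bottom; the left panel is the Mettl14 line and the right panel the Mettl3 line, with the inhibitor contrast as circles and the knockout contrast as squares. GSK343 changes lie between 0.67 and 1.75 and GSK-J4 changes between -2.62 and -0.34, and Lss stands out at the left and Nsdhl at the right.

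In the Mettl3 knockout against its control, no enzyme passed the test. Log2 fold changes ran from -0.043 ± 0.28 (Msmo1) to 0.65 ± 0.37 (Hsd17b7), with a median of 0.30 against -0.010 over all genes, and 8 of 9 were positive, against 49% of genes. By edgeR 0 of 9 were called, against 0% of 16782 genes, and DESeq2 and limma voom called 0. At an unadjusted p under 0.05 there were 0 of 9, against 1.88%. All 3 knockout libraries were above all 3 controls for Sqle, Lss, Cyp51 and Hsd17b7, 4 of 9 against 6.47% of genes. The mesenchyme sum was higher in all 3 knockout libraries than in the controls, and of its genes only Col1a1 and Col1a2 separated the groups. Col3a1, Sparc, Pdgfra and Vim overlapped, and mean Vim was 3238 CPM in the knockout and 3378 CPM in the control. The part of these shifts was not tested. The sign was not fixed for Msmo1, Tm7sf2 and Fdft1: without control replicate 2 Msmo1 had 0.067, without knockout replicate 3 it had 0.064, without knockout replicate 1 Tm7sf2 had -0.078, and without knockout replicate 2 Fdft1 had -0.066.

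With GSK-J4 in the Mettl3 knockout, most of the chain fell. Against the knockout without it, 6 of 9 enzymes were called lower by edgeR's quasi-likelihood test, against 9.07% of all genes, and the median log2 fold change was -1.51 against -0.057 over all genes. The members were chosen with earlier results of these data known, so these counts and p-values are a description. Nsdhl fell by 2.62 ± 0.56 on the log2 scale (adjusted p = 0.0108) and Cyp51 fell by 1.98 ± 0.41 (adjusted p = 0.00980). Hsd17b7 fell by 1.92 ± 0.39 (adjusted p = 0.00809), Sc5d fell by 1.62 ± 0.29 (adjusted p = 0.00409) and Lss fell by 1.51 ± 0.30 (adjusted p = 0.00787). Fdft1, at the head of the chain, fell by 1.19 ± 0.33 (adjusted p = 0.0371). The other 3 did not pass: Tm7sf2 had -1.42 ± 0.58 (adjusted p = 0.134), Msmo1 -0.76 ± 0.28 (adjusted p = 0.101) and Sqle -0.34 ± 0.30 (adjusted p = 0.494). All GSK-J4 libraries were below all knockout libraries for 8 of 9, Sqle being the exception, against 23.2% of genes. The call of Fdft1 was lost without any 1 of the knockout libraries (-1.24, -1.12 and -1.33 without replicates 1, 2 and 3) and without GSK-J4 replicate 2 (-1.10), and Msmo1 was called without GSK-J4 replicate 1 (-1.25, adjusted p = 0.00600). A fit of only these groups called 4, without Nsdhl (adjusted p = 0.0564) and Fdft1 (adjusted p = 0.0888) by edgeR. Limma voom called 3, without Lss (adjusted p = 0.0850), Hsd17b7 (adjusted p = 0.0961) and Sc5d (adjusted p = 0.0761). Over all 15 alternative settings the adjusted p of Cyp51 ran from 5.21e-12 to 0.0486 and that of Msmo1 from 0.00600 to 0.245. The GSK-J4 libraries also had the cell-type marker and mitochondrial shifts given above, whose part was not tested, and the median over all genes is relative to a composition that changed with them.

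Against the Mettl3 control, GSK-J4 libraries gave 4 of 9 called lower, against 8.25% of genes, with a median of -1.21 against -0.083. These counts and p-values are likewise a description. The called genes were Nsdhl, which fell by 2.36 ± 0.55 (edgeR adjusted p = 0.0186), Cyp51, which fell by 1.67 ± 0.41 (adjusted p = 0.0228), Sc5d, which fell by 1.24 ± 0.29 (adjusted p = 0.0171), and Lss, which fell by 1.20 ± 0.30 (adjusted p = 0.0248). Hsd17b7 had -1.28 ± 0.38 (adjusted p = 0.0516) and Fdft1 -1.05 ± 0.33 (adjusted p = 0.0621) by the same test. Sqle had a change of -0.0044 ± 0.30 (adjusted p = 0.994). All 3 GSK-J4 libraries were below all 3 controls for 8 of 9, against 24.1% of genes, and Sqle again was the exception. Counts called were 1 without control replicate 2, 0 without control replicate 3, 7 without GSK-J4 replicate 1 and 0 with only these groups in the fit. The shares of all genes called under these settings are not given, so nothing is read from the changes in count. Without GSK-J4 replicate 1, Fdft1 had -1.67, Msmo1 -1.29 and Hsd17b7 -1.15 and were called, and without GSK-J4 replicate 3 Hsd17b7 had -1.78 and was called. Lss alone lost its call without control replicate 1 (-1.29). Sqle had 0.26 without GSK-J4 replicate 2 and 0.0086 without control replicate 2.

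The members' shares of the summed level, per kilobase of exon, differed among the GSK-J4 libraries. Fdft1 had the highest group mean in all 6 groups, at 23.4 to 27.9% of the summed level, and ranked first in 16 of 18 libraries. The exceptions were GSK-J4 replicate 3, where it had rank 4 at 16.9%, below Msmo1, Sqle and Cyp51, and Mettl3 knockout replicate 3, where Cyp51 was above it. Per kilobase, Tm7sf2 had the lowest group mean in 5 groups, and Lss had it in the Mettl14 knockout. The length used was that of all annotated exons joined, 10787 bases for Lss and 2853 to 6144 for the other members. The rank of Lss depends on that length: in CPM its mean in the Mettl14 knockout was 52.7, against 23.6 for Tm7sf2. Sqle made up 20.3, 16.2 and 21.5% in the GSK-J4 libraries, 9.72, 10.3 and 10.3% in the Mettl3 knockout and 9.54, 9.26 and 9.30% in its control, so that the GSK-J4 shares were above all others of the line. Cyp51 made up 17.8, 7.93 and 17.2% with GSK-J4, 23.6, 24.4 and 25.2% in the knockout and 24.4, 22.2 and 22.5% in the control, and its GSK-J4 shares were below all others. Nsdhl made up 2.12, 1.46 and 7.67% with GSK-J4, 10.1, 8.45 and 8.49% in the knockout and 8.13, 8.93 and 9.21% in the control. Its GSK-J4 replicate 3 lay near the other groups, and the group mean of 3.63% became 1.90% without that library. Msmo1 had a mean of 21.1% with GSK-J4, 14.5% in the knockout and 17.4% in the control, with GSK-J4 overlapping the control. In the Mettl14 line Lss made up 3.88, 2.53 and 5.00% with GSK343, 1.32, 2.72 and 2.28% in the knockout and 2.59, 2.76 and 1.98% in the control, and the groups overlapped through GSK343 replicate 2. These shares are on a per-length scale and are given with no test.

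**Figure D3:**
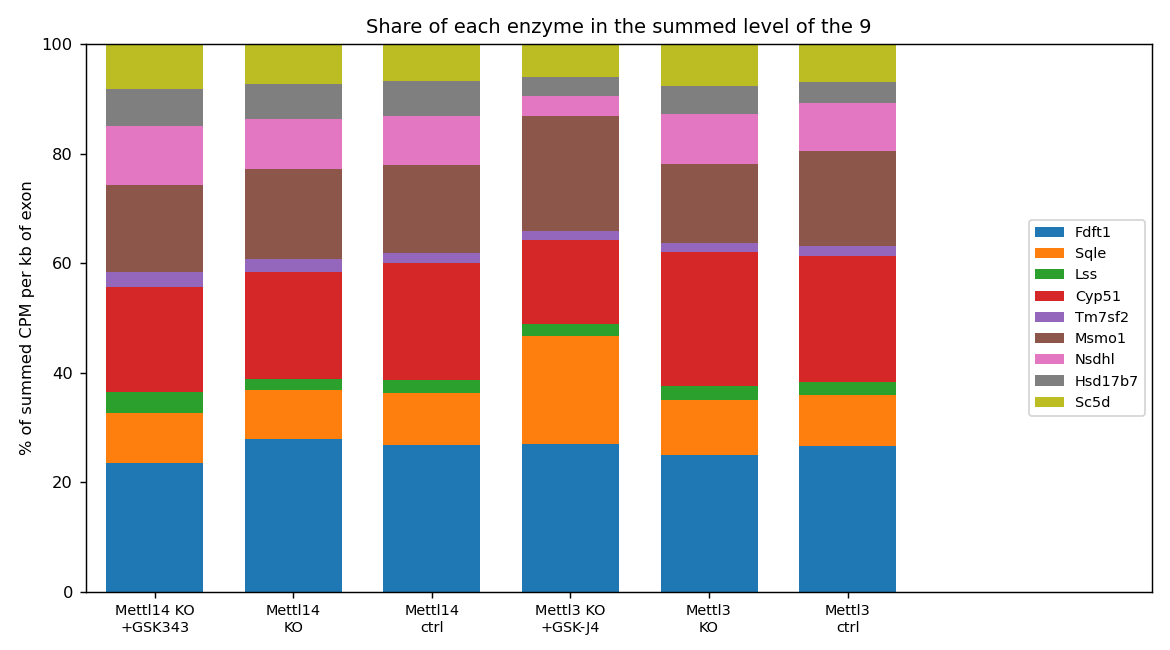
Share of each enzyme in the summed CPM per kilobase of exon of the 9, in percent, by group, stacked in pathway order from bottom to top; bars are group means of 3 libraries. Sqle takes 19.7% and Nsdhl 3.63% with GSK-J4 (1.90% for Nsdhl without replicate 3), against 10.1% and 8.99% in the Mettl3 knockout.

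Between the control groups, none of the 9 passed the test between the lines, with 0 called against 0.913% of 16326 genes, 0 at an unadjusted p under 0.05 against 5.35%, and 0 by DESeq2 or limma voom. The median of the Mettl3 control over the Mettl14 control was 0.26 on the log2 scale, against 0.0079 over all genes, and only Hsd17b7 was negative, at -0.44 ± 0.30. All 3 Mettl3 control libraries were above all 3 Mettl14 controls for Fdft1, Sqle, Cyp51, Msmo1 and Sc5d, 5 of 9 against 8.47%. Line, culture and library batch cannot be told apart here.

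The genes upstream and around the chain were counted from lists chosen with earlier results of these data known. Their counts and p-values, here and in the paragraphs on these lists that follow, are a description, and nothing is read from them. Of 7 listed enzymes that lead to farnesyl diphosphate, 3 were called higher in the Mettl14 knockout with GSK343 than in its control: Acat2 (acetyl-CoA to acetoacetyl-CoA), Hmgcs1 (HMG-CoA synthase) and Idi1 (isomerase). The share of all genes called higher in that contrast was 0.151%. Hmgcs1 had 405, 404 and 255 CPM with GSK343, 193, 224 and 125 CPM in the knockout and 143, 135 and 109 CPM in the control. Its log2 fold change from the control was 1.48 ± 0.25. Idi1 had 202, 206 and 80.0 CPM with GSK343, 75.9, 117 and 45.7 CPM in the knockout and 57.8, 39.9 and 22.5 CPM in the control. Its change from the control was 2.07 ± 0.38, and GSK343 replicate 3 overlapped the knockout. Against the knockout, 0 of the 7 were called with GSK343, where 0.0288% of genes were called higher. Acat2 changed by 1.68 ± 0.27. With GSK-J4 the same count, 3 of 7, was called lower than in the Mettl3 knockout, again Acat2, Hmgcs1 and Idi1, against 9.07% of all genes. Against the Mettl3 control 2 of 7 were called lower, Acat2 and Hmgcs1, against 8.25%. In both contrasts 1 of the 7 had a positive fitted change, which did not pass the test (0.64 against the knockout and 1.56 against the control). Acat2 fell by 2.85 ± 0.41 on the log2 scale (edgeR adjusted p = 0.00112), with 5.28, 4.44 and 5.40 CPM with GSK-J4 against 33.6, 45.8 and 32.9 CPM in the knockout.

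Of 3 other late sterol genes listed, Dhcr7, which catalyses the last step to cholesterol, was called higher with GSK343 than in the Mettl14 control (1.55 ± 0.29). This was 1 of 3, against 0.151% of all genes. It had 66.7, 63.5 and 81.5 CPM with GSK343, 23.9, 33.2 and 36.9 CPM in the Mettl14 knockout and 25.7, 25.3 and 21.4 CPM in the control. All GSK343 values were above the others, and the knockout overlapped its control. In the Mettl3 line 0 of the 3 were called with GSK-J4 against the knockout, where 9.07% of all genes were called lower. Dhcr7 had 0, 1.82 and 11.98 CPM with GSK-J4, 38.0, 24.5 and 31.1 CPM in the knockout and 26.5, 25.4 and 31.0 CPM in the control.

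Of 10 listed genes of sterol sensing and uptake, Insig1, which encodes an INSIG protein, was called higher with GSK343 than in the Mettl14 control (1.70 ± 0.22). This was 1 of 10, against 0.151% of all genes. With GSK-J4, 2 of 10 were called lower than in the Mettl3 knockout, against 9.07% of all genes. Srebf2, which encodes SREBP2, fell by 1.42 ± 0.23 on the log2 scale (edgeR adjusted p = 0.00209), and so did Mbtps1, which encodes the protease that first cuts it, by 1.49 ± 0.23 (edgeR adjusted p = 0.00164). Of the 5 efflux and LXR genes, Abcg1, a sterol exporter, was called lower with GSK343 than in the Mettl14 control (-1.82 ± 0.34), 1 of 5 against 0.0144% of genes. Abcg1 had 15.3, 16.6 and 34.9 CPM with GSK343, 41.2, 31.8 and 53.6 CPM in the knockout and 77.0, 69.8 and 66.9 CPM in the control. The knockout already lay below the control, and it overlapped GSK343 through GSK343 replicate 3. In the Mettl3 line Abcg1 had 0, 9.90 and 0 CPM with GSK-J4, 27.0, 23.3 and 28.2 CPM in the knockout and 47.6, 27.2 and 56.8 CPM in the control. Mylip, which encodes a ubiquitin ligase induced by LXR, was called lower with GSK-J4 than in the Mettl3 knockout (-1.81 ± 0.31, edgeR adjusted p = 0.00294), 1 of 5 against 9.07%. In the knockout contrasts of both lines, and with GSK343 against the Mettl14 knockout, 0 genes of these 4 lists were called. Over all genes, 0% were called in either knockout contrast and 0.0288% were called higher with GSK343 against the knockout.

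Among 8987 other protein-coding genes at 10 CPM or more, the profiles over the 6 group means nearest to the median of the 9 enzymes were those of Insig1 and Hmgcs1, with root mean square differences of 0.077 and 0.080 on the log2 scale. Elovl6 (0.17), Scd1 (0.21) and Fasn (0.21), which make or desaturate fatty acids, and Trnp1 (0.22) followed. The likeness is over 6 group means, and depths within a group differed widely. Insig1 had 218, 238 and 239 CPM with GSK343, 107, 105 and 105 CPM in the Mettl14 knockout and 76.4, 69.0 and 71.7 CPM in its control. It had 88.7, 21.2 and 31.0 CPM with GSK-J4, 90.1, 111 and 111 CPM in the Mettl3 knockout and 83.0, 96.8 and 84.7 CPM in its control. Its GSK-J4 replicate 1 lay among the control values, and replicates 2 and 3 lay below them.

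**Figure D4:**
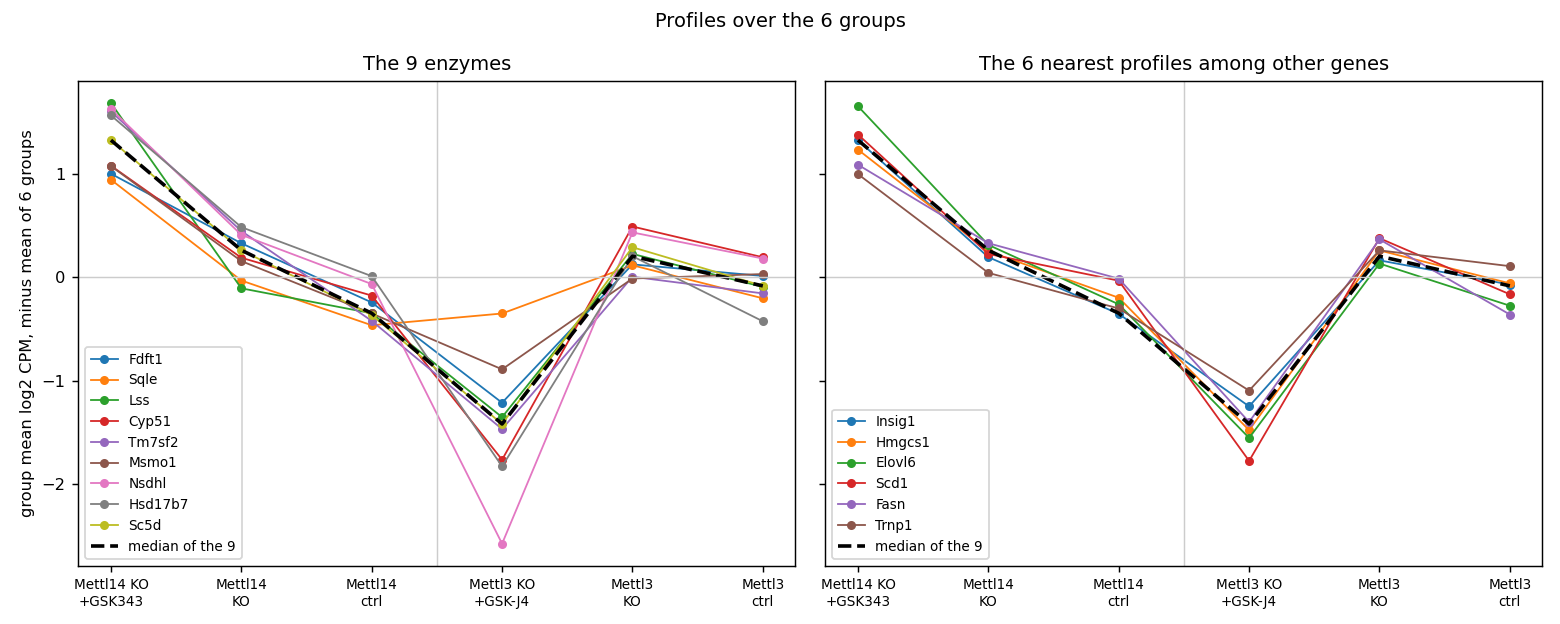
Group mean of log2 CPM minus the mean of the 6 groups, for the 9 enzymes at the left and the 6 nearest other genes at the right; the dashed line is the median of the 9. All peak with GSK343, and all but Sqle are lowest with GSK-J4.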

How the data were processed

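The authors deposited gene-level read counts, not normalised, for each of 18 libraries. Per the labels' protocols, poly(A) RNA was made into libraries with the SMARTer Stranded Total RNA-Seq kit v2. Reads were processed with CASAVA, Trimmomatic 0.38, HISAT2 2.1.0 and HTSeq on mm10, per the submitters' processing notes. The annotation release and strand setting of the counting were not given in the sources used here, and 54409 of 54446 identifiers matched GENCODE M21, the source of symbols and coordinates.

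One fit per line took its 9 libraries, by the quasi-likelihood F test of edgeR 4.0.16 under R 4.3.3 (low counts removed by filterByExpr, TMM, Benjamini-Hochberg over all genes, threshold 0.05). The control groups were compared in a fit of all 18. Each SE given is the size of the log2 fold change divided by the square root of its F statistic. All 9 members passed the filter in each fit. The members and lists were chosen with earlier results of these data known. Other genes named are list members called (up to 4 by smallest p per list and comparison), the 6 nearest profiles (mean of 10 CPM or more, prior count 2) and the targeted genes. Some genes of these lists and profiles are not reported here, and list counts leave them out. No 2 libraries were identical. Alternatives were DESeq2 1.42.0, limma 3.58.1 voom, RLE size factors, no filter, a replicate block, other sample sets, each library left out, thinning and plain totals. The edgeR test was also run on simulated counts in which the changed genes were only raised. The GSK-J4 contrasts had changes in both directions, so that run does not check them, and no result is read from it. A floor of 3 counts was 0.0922 to 4.16 CPM, which covers counting error only. Figures used matplotlib 3.10.9.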

Additional observations from a re-analysis of the deposited data

How the results depend on the processing

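Thinning to the lowest total of a fit and plain library totals were chosen after seeing the data, and where a value moved the cause was not tested. In GSK343 against knockout (1 member called), DESeq2 called 5, voom 2 and no filter 2, and RLE factors, only the 2 groups, all 18 libraries, leaving out the 2 shallowest and thinning gave 0, with 0 to 1 on leaving out single libraries. Its median (1.04) was 0.93 with voom, 0.91 without the 2 shallowest, 1.13 with plain totals and 0.89 to 1.12 with 1 library left out. In GSK343 against control (9 called), all 18 libraries gave 2 and single omissions 2 to 8, and the thinned median was 1.69. Over all genes its main fit called 23 of 13882, all 18 libraries 2 of 16326 and single omissions 4 to 28. In GSK-J4 against knockout (6 called), voom gave 3, only the 2 groups 4, single omissions 5 to 7, and plain totals a median of -1.26. In GSK-J4 against control (4 called), no filter gave 7, only the 2 groups 0, all 18 libraries 7 and single omissions 0 to 7, with medians of -1.35 to -1.16 on omissions and -0.96 with plain totals. Voom moved the median of all genes by -0.30 and plain totals by 0.24 in GSK-J4 against knockout. The control contrast's median (0.26) was 0.31 with voom, 0.32 with plain totals and 0.21 to 0.29 on omissions. Signs turned for these genes, given with their range over single omissions. In the Mettl14 knockout against control Lss had -0.042 without knockout replicate 2 (-0.042 to 0.54). In the Mettl3 knockout against control Msmo1 had 0.067 without control replicate 2 and 0.064 without knockout replicate 3 (-0.13 to 0.067). There Tm7sf2 had -0.078 without knockout replicate 1 and -0.074 thinned (-0.078 to 0.41), and Fdft1 had -0.066 without knockout replicate 2 (-0.066 to 0.27). Sqle in GSK-J4 against control had 0.10 with DESeq2 and RLE factors, 0.0086 without control replicate 2, 0.26 without GSK-J4 replicate 2, 0.16 thinned and 0.26 with plain totals (-0.50 to 0.26). Tm7sf2 in the control contrast had -0.030 without Mettl14 control replicate 1 and -0.043 thinned (-0.030 to 0.56). No pairing by replicate number was seen: same-numbered libraries correlated at -0.085 to 0.069 over 21 pairs, and 7 of 21 matched their own number best. With 3 libraries per group of unlike depth, this cannot show that the samples were unpaired. With a replicate block 0 members were called in GSK343 against knockout, 8 in GSK343 against control, 6 in GSK-J4 against knockout and 3 in GSK-J4 against control. The lowest counts behind a member's value were 19 (Tm7sf2, Mettl14 knockout) and, with GSK-J4, 23 (Tm7sf2) and 26 (Nsdhl).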
